A study of Mus musculus with 2 samples.

Results

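Platelet-derived growth factors (PDGFs) and their receptors are represented here by 5 genes, the ligands Pdgfa, Pdgfb and Pdgfc and the receptors Pdgfra and Pdgfrb. They were found by gene symbol among the 27998 genes of the count tables, and each symbol matched 1 gene. PDGF ligands are secreted dimers that bring a pair of receptor tyrosine kinases together at the surface of a receiving cell. Ligands made from Pdgfa and Pdgfc act through the receptor encoded by Pdgfra, whereas the product of Pdgfb binds both receptors. In the embryo, epithelia and muscle precursors are known sources of Pdgfa for neighbouring mesenchyme carrying Pdgfra, and endothelial Pdgfb is known to recruit vessel wall cells carrying Pdgfrb.

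Single cells were profiled from the pharyngeal apparatus and heart of mouse embryos (Swiss Webster in the labels) at embryonic day (E) 9.5. The control library (Ctrl) had the genotype Mesp1Cre;Rosa26-GFPflox/+ and the second library (cKO) had the genotype Mesp1Cre;Rosa26-GFPflox/+;Tbx1flox/flox, so both carried the Cre driver and the reporter. Mesp1Cre acts in early mesoderm, and live GFP-positive cells were sorted, so epithelium and neural crest, which are not of this lineage, were not targeted. A pair of embryos was pooled for each library, which counts as 1 sample. The study's methods give a different parental line and a slightly later somite stage for the second library, and neither can be told apart from the genotype. Every difference between libraries below therefore has no replicate check, and no test was made. The 95% intervals given reflect counting error alone.

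The tables held 7418 cells with 132017331 unique molecular identifiers (UMIs) in the library labelled Ctrl and 10281 cells with 162874391 UMIs in the library labelled cKO. After filtering, 6591 and 8969 cells were kept, with medians of 16854 and 14192 UMIs per cell, and 12 cell barcodes were shared between the kept cells of both libraries. Cells were clustered without the PDGF genes, and clusters were named from marker lists as the nearest population (names end in -like). The targeted gene Tbx1 went against its label in several classes, but not in BrM-like cells. Its level, in CPM (a gene's UMIs for each 1000000 UMIs of the population), was 54.1 in MLP-like cells of the library labelled Ctrl and 106 CPM in those of the library labelled cKO, and 123 and 97.6 CPM in BrM-like cells. In sclerotome-like cells it was 13.2 and 83.0 CPM. The 3′ end that is counted may lie outside the deleted stretch, so this check says nothing about the deletion, and each direction below is between libraries as labelled. In the library labelled cKO, erythroid-like cells made up 159 of the kept cells, and the 7 listed erythroid genes summed to 166 CPM in MLP-like, 170 CPM in BrM-like and 182 CPM in endothelium-like cells, against 0.43, 1.11 and 15.7 CPM in the other library. RNA of these genes was thus counted outside the cells that make it. In the erythroid-like cells themselves the PDGF genes stood between 0 (Pdgfb) and 2.63 CPM (Pdgfrb), and none of the 159 cells, thinned to 5000 UMIs, had a UMI of any of them, which by the limit of 3 counts allows up to 1.89% of cells with a UMI (Clopper-Pearson upper bound 2.29%). Their median depth was 25427 UMIs. Levels near those values in that library are read as background. The library labelled Ctrl had no erythroid-like cells, so its background was not measured.

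Of the ligands, Pdgfa was the most abundant over all kept cells, at 25.5 and 14 CPM, and was highest in cells of muscle and endothelium. Branchiomeric muscle progenitors (BrM-like, named from markers such as Tcf21, Msc, Lhx2 and Myf5, 444 and 560 cells) held 108 CPM (102 to 115) in the library labelled Ctrl and 46.5 CPM (42.1 to 51.3) in the library labelled cKO. A vessel endothelial cluster led by Cldn5, Emcn and Sox18 followed with 70.2 and 29.9 CPM. The other endothelium-like cluster, led by Klf2, Gngt2 and Eng, had 1.24 and 0.531 CPM, the latter near the level of the erythroid-like cells of that library. Cardiomyocyte-like (CM-like) cells had 55.2 CPM (48.8 to 62.2) and 42.4 CPM (37.9 to 47.2), with 56.5 and 48.9 CPM in the Myh6 cluster and 53.9 and 34.0 CPM in the Myl2 cluster. Multilineage primed progenitors of the cardiopharyngeal mesoderm (MLP-like, 1074 and 1469 cells) had 21.8 CPM (19.8 to 24.1) and 11.4 CPM (10.1 to 12.9). Among the 11 classes compared, the lowest level of the library labelled Ctrl was in sclerotome-like cells (5.48 CPM, and 6.25 CPM in the other library) and that of the library labelled cKO in dermomyotome-like cells (3.08 CPM, against 10.5 CPM). In order of level the BrM-like cells came first, above the endothelial cluster beyond counting error, in the library labelled Ctrl. In the other library the Myh6 cardiomyocytes and the BrM-like cells led, and these did not differ beyond counting error. Of the 20 pairs of neighbours among 21 ranked clusters, 15 and 17 were within counting error.

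As a share of cells, Pdgfa was seen in 33.9% (29.5 to 38.6) of BrM-like cells of the library labelled Ctrl, thinned to 5000 UMIs, and in 20.4% (17.1 to 24.0) in the library labelled cKO. Without thinning the shares were 66.7% and 37.5%. The UMIs per positive cell were also fewer, 1.69 against 1.23, and 2 or more UMIs were found in 55 of 442 and 20 of 559 thinned cells. MLP-like cells had thinned shares of 10.3% (8.57 to 12.3) and 5.37% (4.27 to 6.65), and endothelium-like cells 13.6% (10.2 to 17.5) and 8.47% (5.83 to 11.8). Thinned CM-like shares were 20.9% (16.2 to 26.3) and 17.9% (14.5 to 21.6), with overlapping intervals.

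Pdgfb was almost confined to endothelium. Endothelium-like cells (366 and 378 cells) held 74 of its 90 UMIs in the library labelled Ctrl and 50 of its 61 in the library labelled cKO. Their level was 11.5 CPM (9.03 to 14.4) and 9.32 CPM (6.92 to 12.3). The Cldn5 cluster carried most of it, 16.7 and 13.2 CPM, against 2.88 and 2.13 CPM in the Klf2 cluster. Among the 21 ranked clusters the Cldn5 cluster exceeded the next beyond counting error in both libraries. Outside endothelium, a cluster too small to be ranked was led by Pf4, Thbs1 and Plek, genes of platelets and their precursors. It had 21.5 and 28.8 CPM from 7 and 4 UMIs in 13 and 9 cells. The BrM-like cells had 0 UMIs in both libraries, where 3 counts would be 0.333 and 0.343 CPM. Endothelium-like cells were positive in 5.26% (3.2 to 8.10) and 3.83% (2.11 to 6.33) after thinning.

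Pdgfc, whose product is secreted with a domain that proteases remove to activate it, was spread over more mesenchyme. In the library labelled Ctrl the highest level was in BrM-like cells, 40.1 CPM (36.0 to 44.4), followed by posterior second heart field (pSHF-like), septum transversum-like, epicardium-like and dermomyotome-like cells at 25.7 to 29.6 CPM. In the library labelled cKO the BrM-like level was 7.77 CPM (6.04 to 9.86), and dermomyotome-like cells led with 35.9 CPM (28.0 to 45.4). Thinned shares of BrM-like cells were 17% (13.6 to 20.8) and 3.04% (1.78 to 4.82), and unthinned shares 54.1% and 11.1%. The gene was low in endothelium-like cells, at 1.09 and 0.559 CPM. A cluster led by Barx1, Ifitm1 and Tmem158 had 32.2 and 24.8 CPM. Of the 20 neighbour pairs, 19 and 18 were within counting error, so the order of the Pdgfc levels is loose.

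Pdgfra was the most abundant of these genes and was a gene of mesenchyme. It reached 211 CPM (199 to 223) and 142 CPM (133 to 152) in the Barx1 cluster, which stood above the next cluster beyond counting error in both libraries. Sinus venosus-like cells came second, at 163 CPM (153 to 174) and 121 CPM (114 to 128). Epicardium-like, sclerotome-like, SoM/aSHF-like (mesoderm of the body wall together with the anterior heart field) and MLP-like cells had between 95.5 and 126 CPM in the library labelled Ctrl and between 64.8 and 80.0 CPM in the library labelled cKO. BrM-like cells had 1.67 CPM (0.932 to 2.75) and 2.74 CPM (1.76 to 4.08), from 15 and 24 UMIs, and a thinned share of 0.905% and 1.07%. This is at the level of the erythroid-like cells, 2.39 CPM (1.15 to 4.40), which for the library labelled cKO is read as background. The Cldn5 endothelial cluster was likewise at 2.25 and 2.58 CPM, whereas the Klf2 endothelial cluster had 37.5 CPM (30.2 to 46.0) and 30.8 CPM (23.4 to 39.8). Between the cardiomyocyte clusters Pdgfra also differed, with 52.0 and 45.9 CPM in the Myh6 cluster and 11.8 and 14.8 CPM in the Myl2 cluster. The BrM-like and the Cldn5 endothelial cells, with high Pdgfa, were therefore near this level for its receptor gene, and the cardiomyocytes of the Myh6 cluster had both.

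Pdgfrb, the receptor gene of pericytes and vascular smooth muscle, had 1 leading population. A cluster of 62 and 114 cells led by Tagln, Anxa3 and Myl9 had 132 CPM (111 to 154) and 109 CPM (94.7 to 125), above the next beyond counting error in both libraries. The 7 listed mural genes, of which Tagln is 1, summed to 3051 and 4283 CPM there. Only 3 of them reached 30 UMIs, and Kcnj8 was at 0. CM-like cells had a larger mural sum, 5682 and 6715 CPM, with Pdgfrb at 4.87 and 4.52 CPM. The cluster took no name, and its nearest list was SoM/aSHF, with 3 of 9 markers. A cluster led by Crym and Tgfbi had 59.6 and 45.0 CPM, MLP-like cells 48.5 and 34.7 CPM, and sclerotome-like cells 39.3 and 46.0 CPM. BrM-like cells had 12.5 CPM (10.3 to 15.1) and 18.9 CPM (16.1 to 22.0). As with Pdgfra, the Klf2 endothelial cluster had more (20.6 and 11.7 CPM) than the Cldn5 cluster (1.5 and 0.861 CPM). Unlike Pdgfra, it was low in the Barx1 cluster, at 7.44 and 4.52 CPM, and in epicardium-like cells, at 3.39 and 1.51 CPM.

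**Figure D1:**
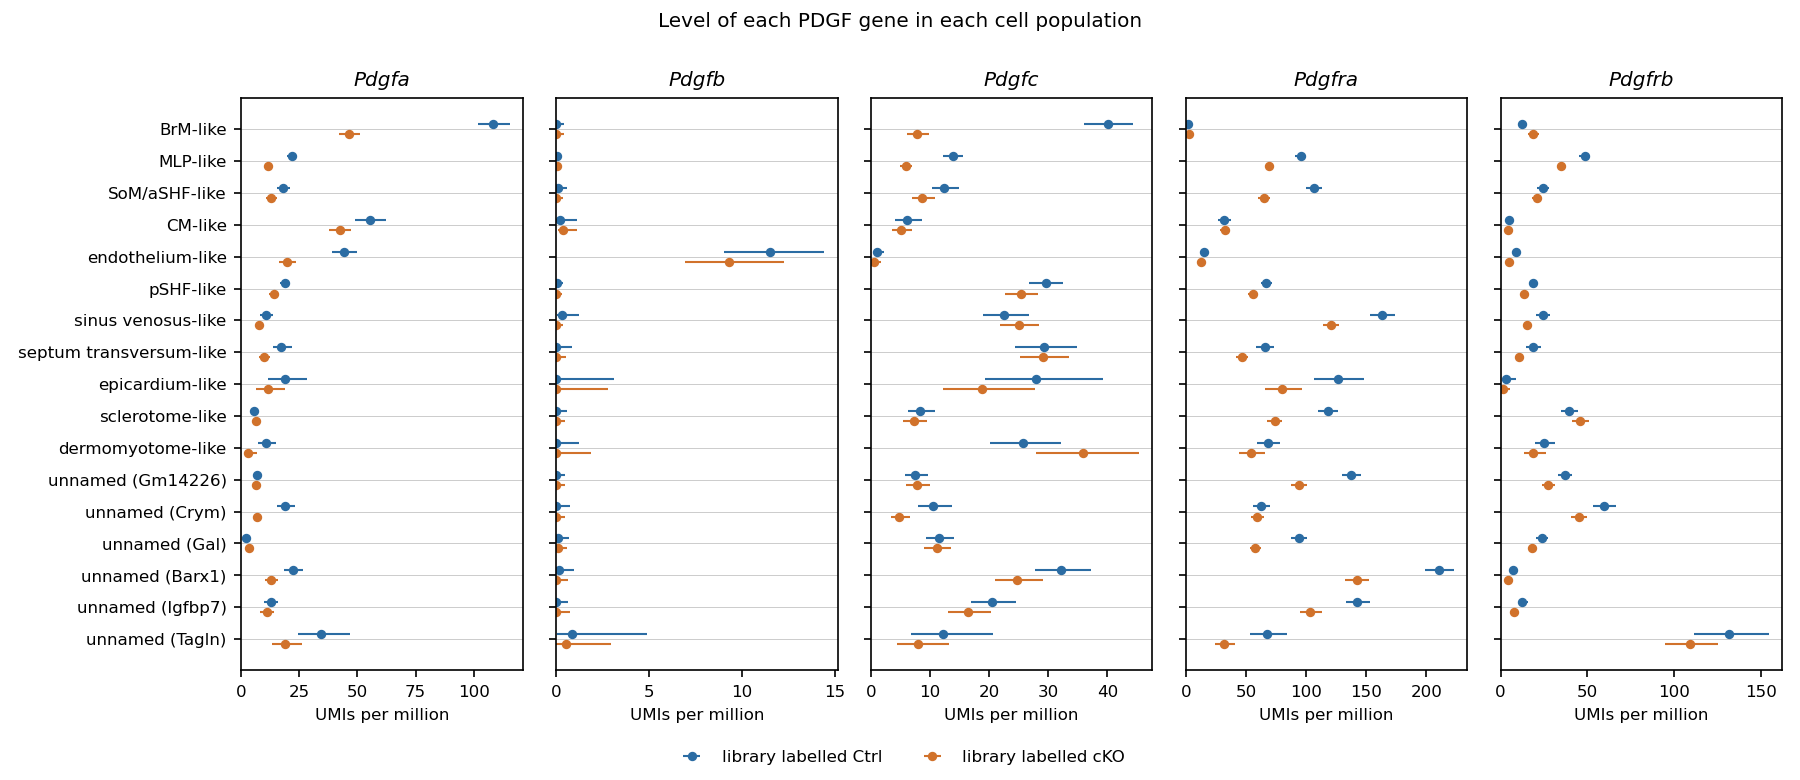
Level of each PDGF ligand and receptor gene (CPM) by cell population, with 1 point per library and exact 95% Poisson intervals. BrM-like cells have 108 and 46.5 CPM of Pdgfa, the first level in the library labelled Ctrl, while their Pdgfra is at 1.67 and 2.74 CPM.

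Over the 22 points of 11 classes in both libraries, the log2(CPM + 5) levels of Pdgfa and Pdgfra had a Pearson r of -0.74, given as a description since the points share libraries. By the same measure, among 7658 genes, the pattern of Pdgfa was most like that of Prox1 (r 0.82), Fabp3 (0.79) and Pla2g16 (0.79). The pattern of Pdgfb was most like Ctla2b, Stab1 and Ptprb, with r of 0.997 to 0.998. Outside the endothelium-like points Pdgfb was at 0 to 0.388 CPM, so these r values set 1 class against a floor. For Pdgfc the nearest were Cnksr2 (0.90), Trim37 (0.84) and Ctnnal1 (0.81), for Pdgfra Abhd11os (0.83), Hoxb2 (0.81) and Cd248 (0.78), and for Pdgfrb Tmem119 (0.93), Itgb5 (0.90) and Lpar1 (0.88).

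**Figure D2:**
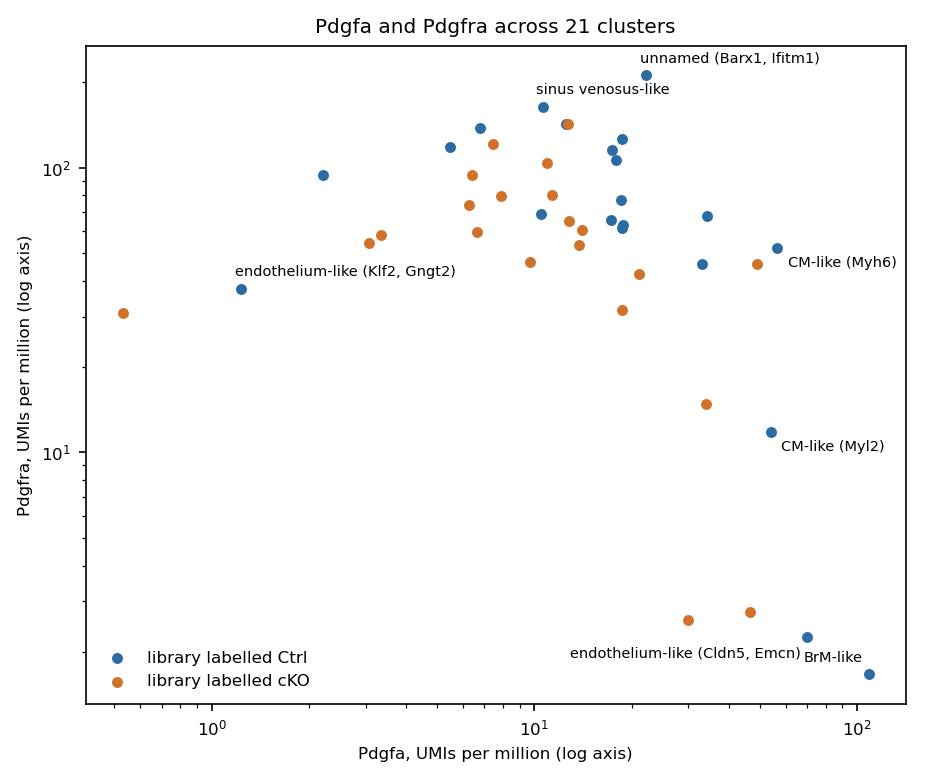
Pdgfa level (horizontal, CPM, log axis) against Pdgfra level (vertical, CPM, log axis) in each of 21 clusters, with 1 point per cluster and library. BrM-like cells and the Cldn5 endothelial cluster lie at high Pdgfa and at 1.67 to 2.74 CPM of Pdgfra, and the Myh6 cardiomyocytes lie at high Pdgfa with 52.0 and 45.9 CPM of Pdgfra, among the lower clusters for that gene.

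The libraries were compared within the 11 classes that had at least 50 cells in each. Clusters that took no name are not among these classes or in the counts of pairs. A gene was compared in a class when it had at least 10 CPM in a library and 30 UMIs in all, and a ratio of 1.5-fold or more was counted as lower or higher. Of the 55 gene and class pairs 37 could be compared, and 13 were lower and 1 was higher in the library labelled cKO. Among all genes compared the same way, the share lower and the share higher were 13.8% and 4.24% in BrM-like, 12.6% and 2.11% in MLP-like, 11.9% and 1.99% in endothelium-like, 10.3% and 2.91% in CM-like, and 11.3% and 2.06% in SoM/aSHF-like cells. In pSHF-like cells these shares were 10% and 1.68%, in sinus venosus-like cells 9.3% and 2.6%, in septum transversum-like cells 11.8% and 2.87%, and in epicardium-like cells 11.1% and 6.65%. In sclerotome-like cells they were 10.1% and 5.15%, and in dermomyotome-like cells 14.8% and 4.93%. The median log2 ratio of all genes compared lay between -0.12 and -0.05 in these classes, and log2 ratios below are given before subtracting it. Subtracting it left Pdgfc in BrM-like cells at -2.25 and Pdgfa there at -1.10.

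Pdgfa was lower in 6 of the 10 classes where it could be compared, and its log2 ratio was below 0 in all 10. In BrM-like cells the log2 ratio was -1.22 (-1.39 to -1.05), and that of the MLP-like cells was -0.93 (-1.16 to -0.71). The endothelium-like ratio was -1.17 (-1.51 to -0.85), but -0.08 where only cells with Y-linked UMIs and no Xist UMI were taken. In septum transversum-like cells it was -0.83 (-1.33 to -0.34), from 17.3 to 9.70 CPM. The dermomyotome-like ratio of -1.77 (-3.32 to -0.48) rested on 31 and 6 UMIs, and the epicardium-like ratio of -0.72 (-1.77 to 0.29) had an interval that spans 0. Within 1.5-fold were CM-like (-0.38), pSHF-like (-0.43), SoM/aSHF-like (-0.48) and sinus venosus-like cells (-0.51). Both MLP-like clusters moved the same way, from 17.4 to 7.90 CPM in the cluster led by Irx1 and Six2 and from 33.0 to 21.1 CPM in the cluster led by Prdm1 and Nrg1. In endothelium-like cells the Cldn5 cluster carried the difference, from 70.2 to 29.9 CPM, and the Klf2 cluster was low in both libraries. Of the clusters without a name, Pdgfa was lower in those led by Crym (-1.50), Barx1 (-0.80) and Tagln (-0.87). It was within the fold in the cluster led by Igfbp7 (-0.20) and was not compared in the others.

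Pdgfc was lower in 2 of its 8 classes, BrM-like and MLP-like. It was 5.15-fold lower in BrM-like cells, a log2 ratio of -2.37 (-2.76 to -1.99), and at -1.23 (-1.54 to -0.92) in MLP-like cells, from 13.8 to 5.91 CPM. In the other classes it was within 1.5-fold. The log2 ratio was -0.52 (-0.94 to -0.10) in SoM/aSHF-like cells and -0.57 (-1.38 to 0.23) in epicardium-like cells, the latter past the fold in 3 of the alternative settings. It was -0.01 (-0.34 to 0.33) in septum transversum-like cells, 0.15 (-0.16 to 0.46) in sinus venosus-like cells, -0.22 (-0.44 to -0.01) in pSHF-like cells and 0.48 (-0.01 to 0.97) in dermomyotome-like cells. The interval of the BrM-like ratio did not overlap any of these. Among the clusters without a name, the Crym cluster was also lower for Pdgfc, at -1.13 (-1.76 to -0.51). Its nearest list was MLP, with 7 of 12 markers. The clusters led by Gal (-0.05), Barx1 (-0.38) and Igfbp7 (-0.32) were within 1.5-fold, and the others were not compared. Pdgfb could be compared in endothelium-like cells alone, and its log2 ratio of -0.30 (-0.85 to 0.23) spans 0, so that neither an even level nor a 1.5-fold lower one was resolved at this depth.

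Since Pdgfa and Pdgfc were both lower in BrM-like and in MLP-like cells, the 250 bases before an annotated start of each are shown, from RefSeq on build GRCm38.p6, with the CG dinucleotides in capitals. The Pdgfa stretch is chr5:138994945-138995194 on the minus strand, which lies inside the span annotated for the gene (chr5:138976014-139000792), and the Pdgfc stretch is chr3:81036166-81036415 on the plus strand, directly before the gene (chr3:81036416-81214040).
Pdgfa: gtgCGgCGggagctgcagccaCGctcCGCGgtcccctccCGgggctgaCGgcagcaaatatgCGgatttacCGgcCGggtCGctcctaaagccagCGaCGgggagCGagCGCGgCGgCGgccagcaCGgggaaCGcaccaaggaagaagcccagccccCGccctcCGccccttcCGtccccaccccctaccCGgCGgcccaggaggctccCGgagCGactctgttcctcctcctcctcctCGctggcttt
Pdgfc: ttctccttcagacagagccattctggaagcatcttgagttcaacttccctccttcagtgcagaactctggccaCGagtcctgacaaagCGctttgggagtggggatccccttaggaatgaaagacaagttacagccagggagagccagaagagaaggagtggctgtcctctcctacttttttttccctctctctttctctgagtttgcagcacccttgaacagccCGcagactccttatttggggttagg
The Pdgfa stretch had 28 CG dinucleotides and 72.4% G and C, and 92.4% of all promoters in the table had fewer CG dinucleotides. The Pdgfc stretch had 3 and 50.8%, with 29.0% of promoters having fewer, against a median of 6. The table lists a second Pdgfa start, and the stretch shown is the one further upstream. The stretch before the other start (chr5:138994282-138994531) had 66.4% G and C and 19 CG dinucleotides, with 80.3% of promoters having fewer of the latter. The T-box letters GGTGTGA, searched on both strands, were in none of these stretches, and 3.33% of the 32851 promoters held them. The shorter core GTGTGA, contained in the longer one, was in none as well, and 12.3% of promoters held it.

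Pdgfra was lower in 3 of 10 classes. The log2 ratio was -0.72 (-0.87 to -0.57) in SoM/aSHF-like, -0.67 (-0.83 to -0.51) in sclerotome-like and -0.66 (-1.03 to -0.29) in epicardium-like cells. The SoM/aSHF-like ratio was within 1.5-fold in 6 of the alternative settings. MLP-like cells, from 95.5 to 69.5 CPM, were at -0.46 (-0.56 to -0.36), and sinus venosus-like cells at -0.44 (-0.56 to -0.31), both within 1.5-fold. Only the CM-like ratio, 0.02 (-0.27 to 0.32), was not below 0. Over all kept cells the gene went from 90.3 to 63.6 CPM.

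Pdgfrb was lower in 2 and higher in 1 of its 8 classes. The log2 ratio was -0.80 (-1.28 to -0.32) in septum transversum-like cells, from 18.7 to 10.7 CPM, and -0.65 (-0.99 to -0.31) in sinus venosus-like cells, from 24.2 to 15.5 CPM. It was 0.59 (0.24 to 0.95) in BrM-like cells, just past the fold, and within it in 5 of the alternative settings. MLP-like cells were at -0.48 (-0.62 to -0.35) and sclerotome-like cells at 0.23 (-0.01 to 0.47).

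**Figure D3:**
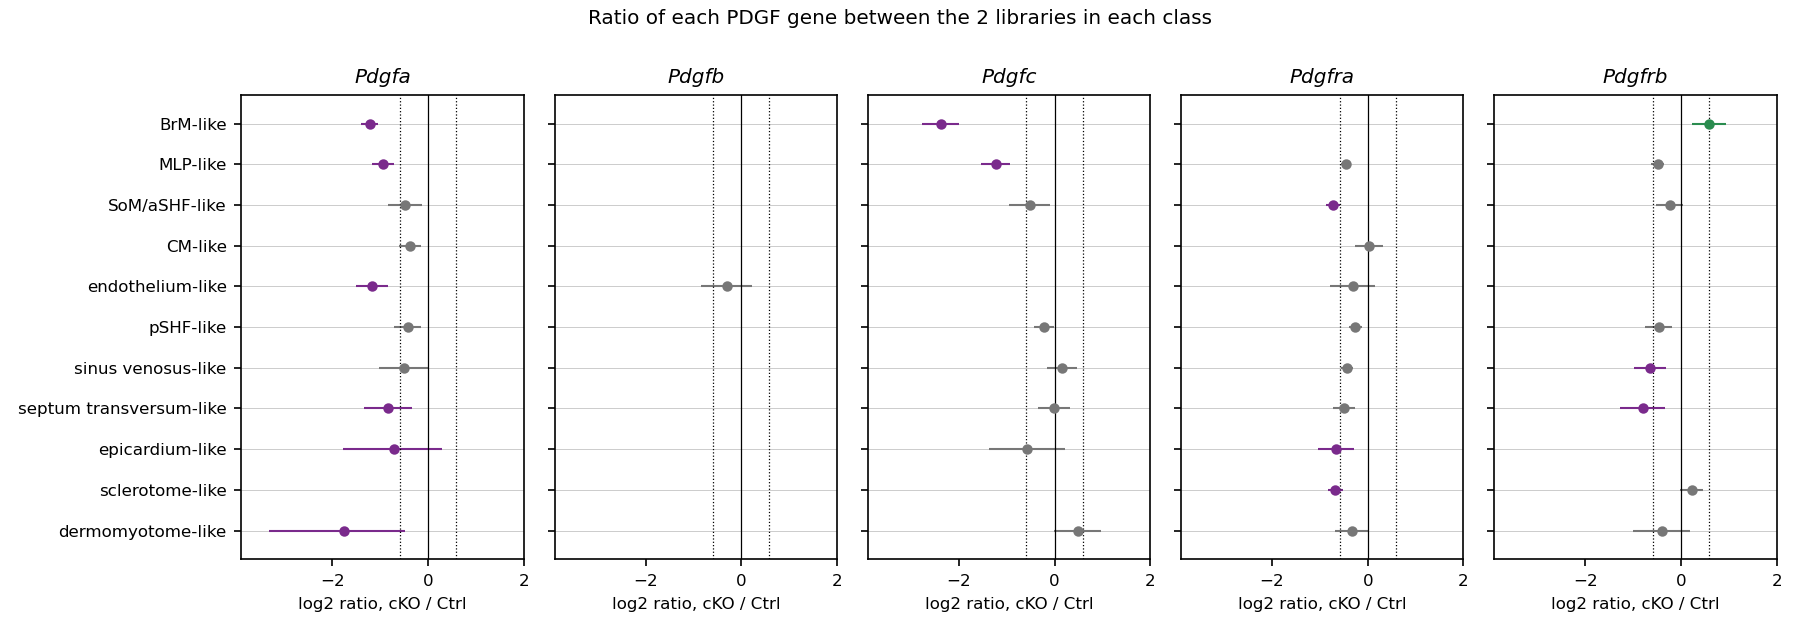
Log2 ratio of each PDGF gene, library labelled cKO over library labelled Ctrl, in 11 classes with exact 95% intervals that cover counting error. Dotted lines mark 1.5-fold, purple points are lower past the fold, green points higher and grey points within it. Pdgfc in BrM-like cells lies furthest from 0 at -2.37, and the 1 green point is Pdgfrb in BrM-like cells at 0.59.

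Other changes in the same cells are given beside these ratios, and their part in them was not tested. In BrM-like cells the 7 BrM markers summed to 1138 CPM in the library labelled Ctrl and to 624 CPM in the library labelled cKO, with 4 lower and 2 higher by the same fold. The 12 MLP markers summed to 687 and 317 CPM there, with 8 lower and 3 higher. The 6 cranial mesenchyme markers summed to 25.9 and 85.3 CPM, with 4 higher and none lower. The 7 mural markers summed to 37.6 and 57.4 CPM, with 2 lower and 2 higher. The 5 sinus venosus markers summed to 54.8 and 12.2 CPM, with 2 lower and none higher. In MLP-like cells the 12 MLP markers summed to 764 and 530 CPM, with 8 lower and 2 higher. The 6 dermomyotome markers summed to 84.8 and 164 CPM there, with 1 lower and 2 higher. The 6 sclerotome markers summed to 206 and 98.8 CPM, with 4 lower and none higher. The 10 pSHF markers summed to 206 and 112 CPM, with 6 lower and 1 higher. In endothelium-like cells the 8 endothelium markers summed to 2186 and 1798 CPM, with 1 lower and none higher. The 6 sclerotome markers summed to 230 and 151 CPM there, with 1 lower and none higher. The 7 mural markers summed to 55.5 and 33.4 CPM, with 3 lower and none higher. In sclerotome-like cells the 6 sclerotome markers summed to 852 and 576 CPM, with 3 lower and none higher. The 6 dermomyotome markers summed to 382 and 204 CPM there, with 2 lower and none higher. The 6 epicardium markers summed to 246 and 80.5 CPM, with 1 lower and none higher. The 7 mural markers summed to 156 and 375 CPM, with 2 higher and none lower. The 9 SoM/aSHF markers summed to 751 and 543 CPM in SoM/aSHF-like cells. In sinus venosus-like cells the 10 CM markers summed to 1618 and 2428 CPM, with 4 higher, and in epicardium-like cells the 7 mural markers summed to 141 and 281 CPM. In septum transversum-like cells the 5 sinus venosus markers summed to 58.3 and 33.9 CPM, and in dermomyotome-like cells the 7 BrM markers summed to 63.5 and 23.1 CPM. Thus the cells compared under 1 name also differed in marker levels.

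Both libraries held cells with Xist UMIs and no Y-linked UMI (3371 and 5083 cells) and cells with Y-linked UMIs and no Xist UMI (2647 and 2778 cells). As each library was pooled from a pair of embryos, these cell groups come from different embryos. Their balance differed between libraries in some classes. Sinus venosus-like cells held 103 Xist and 212 Y-linked cells in the library labelled Ctrl, against 539 and 107 in the other. Dermomyotome-like cells held 87 and 44 against 13 and 80. A ratio over all cells of such a class thus also compares unlike mixes of embryos. In BrM-like cells the log2 ratio of Pdgfa was -1.35 (-1.57 to -1.12) in the Xist group and -0.98 (-1.28 to -0.68) in the Y-linked group, and that of Pdgfc was -2.41 (-2.96 to -1.89) and -2.30 (-3.03 to -1.64). In MLP-like cells Pdgfa was at -0.88 (-1.19 to -0.58) and -1.11 (-1.53 to -0.71), and Pdgfc at -1.30 (-1.73 to -0.89) and -1.18 (-1.71 to -0.67). In these classes both ligands were thus lower past the fold in each group.

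The endothelial Pdgfa ratio did not hold in both groups. It was -2.0 (-2.50 to -1.53) in the Xist group, from 68.9 to 17.2 CPM, and -0.08 (-0.65 to 0.47) in the Y-linked group, from 22.7 to 21.5 CPM. Within the Cldn5 cluster the levels were 94.4 and 27.5 CPM in the Xist group and 40.5 and 32.3 CPM in the Y-linked group. The high value was thus that of 1 group in the library labelled Ctrl. CM-like Pdgfra went in opposite directions, -0.48 (-0.87 to -0.09) and 0.75 (0.19 to 1.33). Sclerotome-like Pdgfrb did so as well, 0.73 (0.40 to 1.05) and -0.60 (-1.04 to -0.14). In septum transversum-like cells the ratios lay further from 0 in the Y-linked group, with Pdgfa at -0.25 and -1.14, Pdgfra at -0.16 and -1.92 and Pdgfrb at -0.25 and -2.08. Sinus venosus-like Pdgfrb was at -0.18 and -0.87. In the Xist group the Pdgfa and Pdgfrb ratios of septum transversum-like cells and the Pdgfrb ratio of sinus venosus-like cells were thus within 1.5-fold. Some ratios within 1.5-fold over all cells of a class were past it in 1 group. Among them were Pdgfa in CM-like cells (-0.65) and sinus venosus-like cells (-1.0) in the Xist group, and Pdgfa in SoM/aSHF-like cells (-1.09) and Pdgfra in MLP-like (-0.62) and sinus venosus-like cells (-0.64) in the Y-linked group. Sclerotome-like Pdgfra was past it in both, at -0.78 and -0.73, while Tbx1 in that class was 2.07 and 142.8 CPM in the Xist group and 47.6 and 43.8 CPM in the other. The higher Pdgfrb of BrM-like cells was 0.90 (0.40 to 1.41) in the Xist group and 0.25 (-0.35 to 0.86) in the other.

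**Figure D4:**
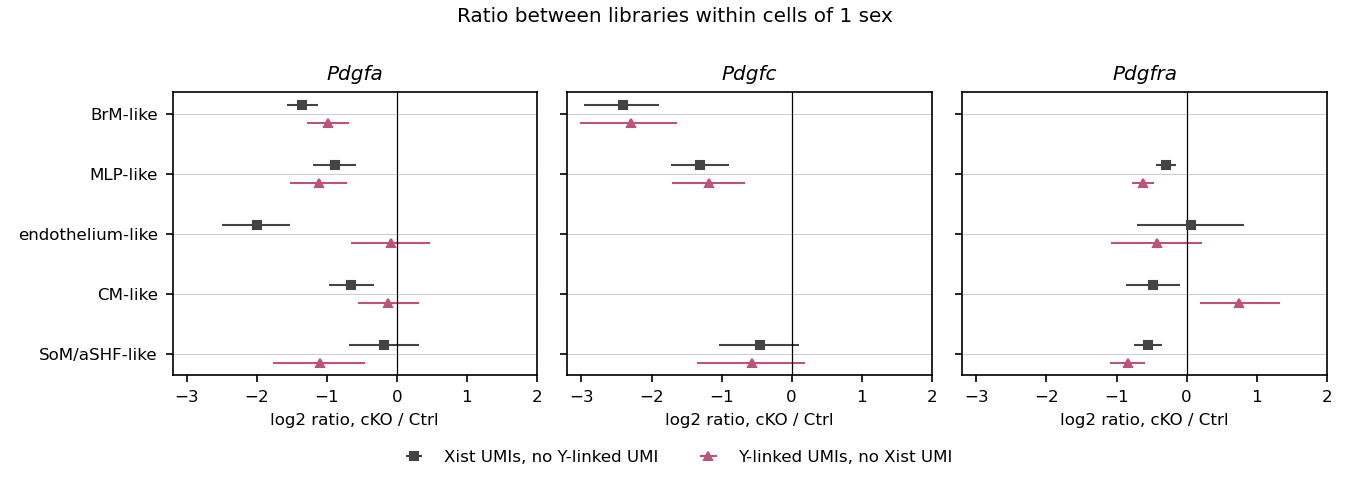
Log2 ratio (library labelled cKO over library labelled Ctrl) of Pdgfa, Pdgfc and Pdgfra in cells with Xist UMIs only and in cells with Y-linked UMIs only, for 5 classes, with exact 95% intervals. Pdgfa and Pdgfc in BrM-like and MLP-like cells are below 0 in both groups, whereas Pdgfa in endothelium-like cells is at -2.0 in one group and at -0.08 in the other.

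Whether a ligand and a receptor were made in the same cell was counted in cells thinned to 5000 UMIs. A UMI of any ligand together with a UMI of any receptor was found in 323 of 6520 cells, 4.95% (4.44 to 5.51), of the library labelled Ctrl and in 297 of 8870, 3.35% (2.98 to 3.74), of the library labelled cKO. The product of the separate shares would be 6.46% and 3.86%. Of Pdgfa-positive cells 15.3% (12.5 to 18.3) and 16% (13.0 to 19.3) had a Pdgfra UMI, against 33.3% (32.1 to 34.5) and 25.2% (24.3 to 26.1) of Pdgfa-negative cells. Median depths of positive and negative cells were close, at 16800 and 16974 UMIs in the library labelled Ctrl. The placing by cell type enters these shares. Among BrM-like cells none of 150 and none of 114 Pdgfa-positive cells had a Pdgfra UMI, which with 1.37% and 1.35% in the negative cells is no difference that this depth could show. None of the 49 and 31 Pdgfa-positive endothelium-like cells had a UMI of either receptor. Of these cells 48 and 31 were in the Cldn5 cluster. In that cluster 3 of 226 and 5 of 224 cells had a Pdgfra UMI, and 1 and 2 a Pdgfrb UMI. With so few receptor-positive cells there, this too is no difference that this depth could show.

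Within a class the separation was seen in MLP-like cells of the library labelled Ctrl, again thinned to 5000 UMIs. Pdgfra was in 16.4% (10.0 to 24.6) of Pdgfa-positive and 33.2% (30.2 to 36.3) of Pdgfa-negative cells. In the library labelled cKO these shares were 17.9% (10.2 to 28.3) and 26.9% (24.6 to 29.3), with overlapping intervals. The MLP-like clusters differ in both genes, and within the Irx1 cluster the shares were 23.4% (12.3 to 38.0) and 40.8% (36.9 to 44.9) in the library labelled Ctrl, with intervals that overlap narrowly, and within the Prdm1 cluster 11.1% (4.59 to 21.6) and 20.6% (16.5 to 25.2). In CM-like cells, where the Myh6 cluster had both genes, Pdgfra was in 10.7% (4.03 to 21.9) of Pdgfa-positive and 13.2% (8.96 to 18.5) of Pdgfa-negative cells. Sinus venosus-like cells had 47.1% (23.0 to 72.2) and 50.3% (44.9 to 55.7), from 17 positive cells. Pdgfc did not separate from Pdgfra in the same way. Over all kept cells Pdgfra was in 31.5% (27.5 to 35.7) of Pdgfc-positive and 31.6% (30.4 to 32.7) of Pdgfc-negative cells in the library labelled Ctrl, and in 28.4% (24.5 to 32.4) and 24.4% (23.5 to 25.3) in the other.

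**Figure D5:**
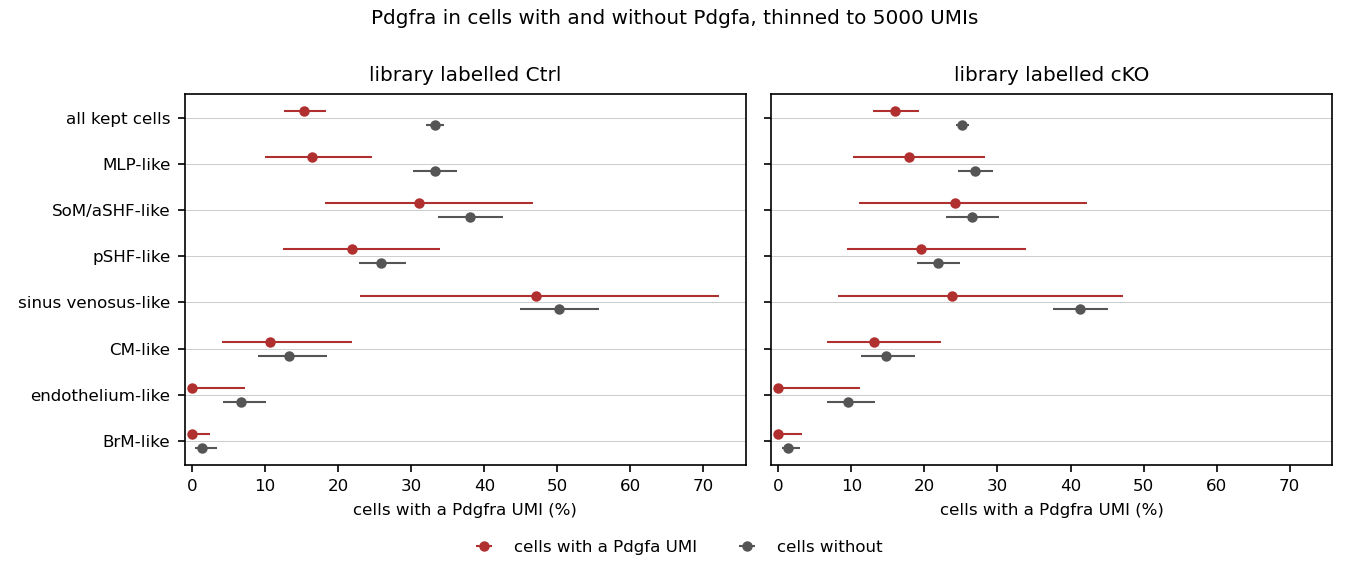
Share of cells with a Pdgfra UMI (percent, Clopper-Pearson 95% intervals) among Pdgfa-positive and Pdgfa-negative cells, by class and library, thinned to 5000 UMIs. Over all kept cells of the library labelled Ctrl the shares are 15.3% and 33.3%, and in sinus venosus-like cells 47.1% and 50.3%.

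Both receptors in 1 cell, thinned to 5000 UMIs, were found in 94 MLP-like cells (8.83%) of the library labelled Ctrl and 71 (4.89%) of the library labelled cKO. Pdgfrb was in 28.1% (23.3 to 33.2) of Pdgfra-positive and 18.1% (15.4 to 21.1) of Pdgfra-negative MLP-like cells of the library labelled Ctrl, and in 18.5% (14.7 to 22.7) and 15.4% (13.3 to 17.7) in the other. The ligand genes Pdgfa and Pdgfc were together in 25 of 442 BrM-like cells of the library labelled Ctrl, with Pdgfc in 16.7% (11.1 to 23.6) of Pdgfa-positive and 17.1% (13.0 to 21.9) of Pdgfa-negative cells. In the library labelled cKO 1 of 559 had both.

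Of the PDGF pathway list of 46 further genes, 32 could be compared in BrM-like cells, of which 8 were lower and 1 was higher in the library labelled cKO (median log2 ratio -0.08). In MLP-like cells 9 of 31 were lower and none higher (median -0.34), and in endothelium-like cells 10 of 37 were lower and none higher (median -0.35). The share lower over all genes in these classes is given above as 13.8%, 12.6% and 11.9%. The related genes Pdgfd, a further ligand, and Pdgfrl, a receptor-like protein without a kinase, were too low to be compared in any class. Pdgfd was highest in the Barx1 cluster at 8.15 and 7.53 CPM, and Pdgfrl was at 3.59 and 3.39 CPM over all kept cells.

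Among the negative regulators, Spry2, an inhibitor of receptor tyrosine kinase signalling, was lower in all 3 classes. It went from 83.8 to 36.7 CPM in BrM-like, from 121 to 55.8 CPM in MLP-like and from 36.7 to 17.2 CPM in endothelium-like cells. Cbl, a ubiquitin ligase for activated receptors, was lower in MLP-like cells (49.6 to 29.8 CPM) and endothelium-like cells (67.8 to 39.7 CPM). Among the transducers, Map2k1, the kinase that activates ERK, went from 153 to 46.2 CPM in BrM-like and from 83.6 to 46.1 CPM in MLP-like cells. Pik3ca, a catalytic subunit of PI3 kinase, was lower in BrM-like (31.4 to 18.4 CPM) and MLP-like cells (42.0 to 24.7 CPM). The adaptor Crk was lower in BrM-like cells (86.8 to 52.4 CPM) and in endothelium-like cells (97.9 to 58.4 CPM), and the adaptor Shc1 in endothelium-like cells (50.1 to 28.0 CPM). Nrp1, a co-receptor for several growth factors, went from 106 to 57.4 CPM in MLP-like and from 225 to 129 CPM in endothelium-like cells. Of the growth factor response genes Myc was higher in BrM-like cells, 16.8 against 40.4 CPM, a log2 ratio of 1.27. These genes also serve other receptors, including those of fibroblast growth factors.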

How the data were processed

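Per the labels, 2 droplet-based 3′ single-cell RNA libraries of mouse embryos at E9.5 were analysed, 1 library per genotype. The deposited values are raw UMI counts per gene and cell barcode, which the authors obtained with Cell Ranger 3.1.0 and the mm10 genome (both from the submitters' processing notes), without normalization. A 3′ UMI count carries no gene length factor. Gene positions and upstream sequences came from RefSeq tables of GRCm38.p6. Positions covered all the PDGF members. Upstream sequences were taken for Pdgfa, Pdgfc and Pdgfra and not for Pdgfb or Pdgfrb. The upstream stretch of Pdgfra is not shown.

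Cells with at least 1000 genes and at most 10% mitochondrial UMIs were kept, which left out 411 and 508 cells. Presumed doublets were removed as the highest Scrublet scores (scanpy 1.11.5) at 0.8% per 1000 cells, 416 and 804 cells, because the automatic threshold marked none of the first library. UMIs of both sexes were in 37.7% and 34.0% of the removed and in 1.30% and 1.26% of the kept cells. Clustering used Seurat 5.3.0 (R 4.3.3) with reciprocal principal component integration, 2000 variable genes, 30 dimensions and resolution 1. It left out 210 genes from the start, the PDGF and pathway genes included, and 1653 genes that differed between libraries from the second pass, of which 616 had been variable genes. A cluster took a name when over 50% of a marker list, and at least 3 markers, were each in at least 10% of its cells and exceeded the remaining clusters by 0.5 in log2(CPM + 5), with at least 1 among its 10 leading genes and no more markers of any other list among them. Classes may differ from the study's populations.

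UMIs were summed per class and library and divided by the class total (CPM), with exact Poisson intervals, exact conditional intervals of ratios and Clopper-Pearson intervals of shares, all at 95%. Cells were thinned to 5000 UMIs for shares, which left out 71 and 99 shallower cells. With 1 library per group no test or p-value was made. The script for ratios was checked on simulated counts. Genes named are the PDGF members, Tbx1, Pdgfd, Pdgfrl, up to 5 pathway genes per class (MLP-like, BrM-like, endothelium-like) by size past 1.5-fold with at least 20 CPM, and the 3 genes most alike in pattern to each member. The members, lists and rules were chosen with earlier results of these data known, and naming thresholds after the data had been seen. Alternatives were TMM (edgeR 4.0.16) and median-of-ratios scaling, other filters, folds, clusterings and thinning, and cells of 1 sex.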

Additional observations from a re-analysis of the deposited data

Results flagged for a closer look

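Pdgfrb went past 1.5-fold in opposite directions in different classes. Its log2 ratio (library labelled cKO over library labelled Ctrl) was 0.59 in BrM-like cells, -0.80 in septum transversum-like cells and -0.65 in sinus venosus-like cells. The difference between these classes was not tested, as each group has 1 library. None of these values was past 1.5-fold in every alternative. The BrM-like value was at 0.25 in the Y-linked group, and in the Xist group the septum transversum-like value was at -0.25 and the sinus venosus-like value at -0.18. The sinus venosus-like value was also within the fold under TMM and median-of-ratios scaling.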

How the results depend on the processing

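No paired analysis was possible because each group had 1 library. All 14 gene and class pairs past 1.5-fold kept their sign in every alternative that measured them. A class needed at least 50 cells in each library, so 11 of the 14 were measured with cells of 1 sex. Below that number Pdgfa in epicardium-like cells was at 0.17 (-1.38 to 1.74) in the Y-linked group, from 8 and 9 UMIs. In the Xist group it was at -1.57 (-3.41 to 0.01). Against 13 lower pairs, 8 were counted with cells of the Xist group and 5 with a fold of 2, and 10 to 16 in the others. Against 1 higher pair, 0 were counted with presumed doublets kept, with at least 2000 genes and at most 5% mitochondrial UMIs, without integration, at resolution 1.5 and with a fold of 2, 2 in the Xist group, and 3 with no filter beyond 1 UMI. The higher pair, Pdgfrb in BrM-like cells, was also within 1.5-fold in the Y-linked group, as was Pdgfa in endothelium-like cells. In the Xist group Pdgfa and Pdgfrb in septum transversum-like cells (-0.25 each) and Pdgfrb in sinus venosus-like cells (-0.18) were within it. TMM scaling left Pdgfrb in sinus venosus-like cells within the fold, and median-of-ratios scaling left it and Pdgfra in SoM/aSHF-like and epicardium-like cells within it. The SoM/aSHF-like Pdgfra ratio was also within the fold with doublets kept, in the Xist group, with first-pass classes and at resolutions 0.6 and 1.5, and first-pass classes left Pdgfa in dermomyotome-like and Pdgfra in sclerotome-like cells within it. The causes were not tested. Beside the losses, 3 pairs in the Xist group, 7 in the Y-linked group and 1 or 2 with the stricter cell filter, first-pass classes, no integration and resolution 1.5 were past the fold there and within it in the values given above, among them Pdgfra in MLP-like cells in the Y-linked group and at resolution 1.5. Of single log2 ratios 348 of 393 stayed inside the interval given, and of CPM levels 709 of 840. Shares moved with thinning and with the UMIs required, 121 of 150 shares of cells with a UMI and 176 of 234 receptor shares in ligand-positive or ligand-negative cells. The share of cells with a ligand and a receptor UMI depends on depth. It was 24.6% and 15.2% (Ctrl and cKO) without thinning, 9.99% and 6.26% at 8000 UMIs, and 0.199% and 0.0225% where 2 UMIs made a cell positive. In the library labelled Ctrl it was 4.39% in the Xist group and 5.59% in the Y-linked group. It was lower in the library labelled cKO in each of these.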
